A study of Mus musculus with 21 samples.

Results

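The 10 genes examined here encode the enzymes that build coenzyme A (CoA), the pantetheinases that act on its breakdown product, and a carrier that brings CoA into mitochondria. They were the rows of a liver count table whose Ensembl identifiers carry the symbols *Pank1*, *Pank2*, *Pank3*, *Pank4*, *Ppcs*, *Ppcdc*, *Coasy*, *Vnn1*, *Vnn3* and *Slc25a42* in GENCODE M21. All 10 were among the 46078 rows of the table, and all 10 were among the 14370 genes with enough reads to be tested.

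CoA is assembled from pantothenate (vitamin B5), ATP and cysteine. Pantothenate kinases (PANK) start the pathway, phosphopantothenoylcysteine synthetase (PPCS) joins the product to cysteine, phosphopantothenoylcysteine decarboxylase (PPCDC) removes the carboxyl group that cysteine brought, and CoA synthase (COASY) completes the molecule. CoA carries acyl groups in fatty acid oxidation, ketone body synthesis and the tricarboxylic acid cycle, so the liver holds a large pool of it. Vanins, the pantetheinases, split pantetheine into pantothenate and cysteamine, which returns the vitamin for reuse and releases a sulfur compound that derives from cysteine.

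The libraries were bulk poly(A) RNA sequencing of whole liver from mice without *Cse* (symbol *Cth*, cystathionine γ-lyase, which makes cysteine from cystathionine) and from comparison mice. The knockouts (KO) were on a 129/C57BL/6 background and lacked the gene throughout the body. The comparison mice are WT in the labels, although the study's text describes its comparison animals as *Cse*+/−, so WT is used below only as a name. All animals were male, at least 9 weeks old and calorie restricted, and after 3 days of a restricted control diet they received their diet for 2 days. The diets were the defined amino acid diet 5CC7 (CTR), the same diet without cysteine (noCys) and the same diet without tryptophan (noTrp), with the remaining amino acids raised in proportion in both depleted diets. The 21 libraries were 3 WT CTR, 4 KO CTR, 4 WT noCys, 3 KO noCys (numbered 1, 3 and 4), 2 WT noTrp and 5 KO noTrp.

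Total counts ran from 8889951 to 27230852 per library. *Cth* was at 108 to 452 CPM (counts after division by the TMM-adjusted library total) in the 9 WT libraries and at 6.34 to 15 in the 12 KO libraries, so every KO library was below every WT library. The 2 WT noTrp libraries were the least alike of any group, with a Pearson r of 0.9638 between their log2 CPM values over all tested genes, against at least 0.9712 within the other groups. The 8 hepatocyte markers (*Alb*, *Ttr*, *Apoa1*, *Apob*, *Serpina1a*, *Cps1*, *Hnf4a* and *Fgb*) were detected in every group, and their summed level was 48900 to 70300 CPM of unscaled totals in KO noCys against 62800 to 99900 in the 5 other groups. The summed level of 8 bile duct and gut epithelium markers was 17.4 to 20.9 in KO noCys and 32.5 to 55.1 in WT noCys. Macrophage markers summed to 99.8 to 135 in KO noCys and 106 to 176 in WT noCys, neutrophil markers to 0.359 to 3.15 and 2.07 to 2.83, and lymphocyte markers to 2.71 to 3.26 and 3.11 to 4.55. For 7 erythroid markers the sums were 138 to 176 in KO noCys and 176 to 351 in WT noCys, for 7 adipocyte markers 18.3 to 38.8 and 17.9 to 27.4, and for 7 pancreas markers 15 to 17.7 and 11.8 to 16.5. In the other comparisons, macrophage sums did not overlap between WT noTrp (199 to 220) and WT CTR (77.1 to 141) or between KO noTrp (140 to 236) and KO noCys. Neutrophil sums were 0.638 to 1.51 in WT CTR, below WT noCys, epithelium sums were 27.2 to 52.2 in KO noTrp, above KO noCys, and erythroid sums were 112 to 214 in KO noTrp and 222 to 378 in WT noTrp. Adipocyte sums were 25.5 to 32.8 in WT noTrp and 13.7 to 21.4 in WT CTR. Pancreas sums were 11.4 to 14 in KO CTR, below WT CTR (17 to 22.8), KO noCys and KO noTrp (15 to 23.5), and WT noCys was also below WT CTR. Muscle markers summed to at most 4.88 and kidney markers to at most 0.337 in any library. The part of these marker differences in the results below was not tested, and in bulk tissue fewer cells of a type cannot be told apart from less RNA per cell.

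At the level of transcripts per unit length, measured as CPM per kilobase of exon and averaged over all 21 libraries, *Vnn3* (50.6) and *Coasy* (48.5) were the most abundant of the 10 genes. *Vnn1* (33.1), *Pank1* (25) and *Slc25a42* (18.3) followed. *Ppcs* was at 14.2 and *Pank3* at 8.46, while *Ppcdc* (4.19), *Pank4* (3.93) and *Pank2* (3.05) were the lowest. *Pank1* was thus the predominant kinase transcript of the liver in every group, and of the later steps *Coasy* was the most and *Ppcdc* the least abundant per unit length. These levels rest on the length chosen for each gene: with the longest transcript in place of all exons, 34 of 60 group means moved by more than their SD, and the order changed. On that length *Coasy* (58.3) lay above *Vnn3* (50.6), *Slc25a42* (29.97) above *Pank1* (27.9), and *Ppcdc* (8.70) above *Pank3* (8.46).

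Below, changes are log2 fold changes with their standard error (SE) from the edgeR quasi-likelihood test over all 21 libraries. A gene is called when its Benjamini-Hochberg adjusted p over the 14370 genes is under 0.05. Values per library are CPM scaled with TMM, in replicate order. All comparisons draw on the same 6 groups, so those that share a group are not independent of one another.

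In the test for any difference among the 6 groups, 3 of the 10 genes were called, beside 28.7% of all genes: *Ppcdc* (adjusted p = 0.000617), *Pank3* (adjusted p = 0.00107) and *Pank1* (adjusted p = 0.0439). The number called fell to 2 in several omissions of a single library, such as WT CTR replicate 1 (beside 24.5% of all genes) or KO CTR replicate 3 (beside 25.9%). *Vnn1* (adjusted p = 0.0522) and *Ppcs* (adjusted p = 0.054) lay just past the threshold. When the 6 groups were ordered by mean for each gene, 45 of the 50 gaps between neighbours were smaller than the larger of their SDs. The 5 others were *Ppcdc* in KO noCys above KO noTrp, *Pank2* in KO noCys above KO CTR, *Pank3* in KO noTrp above WT noTrp, *Ppcs* in KO noTrp above WT CTR, and *Vnn1* in WT CTR above WT noCys.

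**Figure D1:**
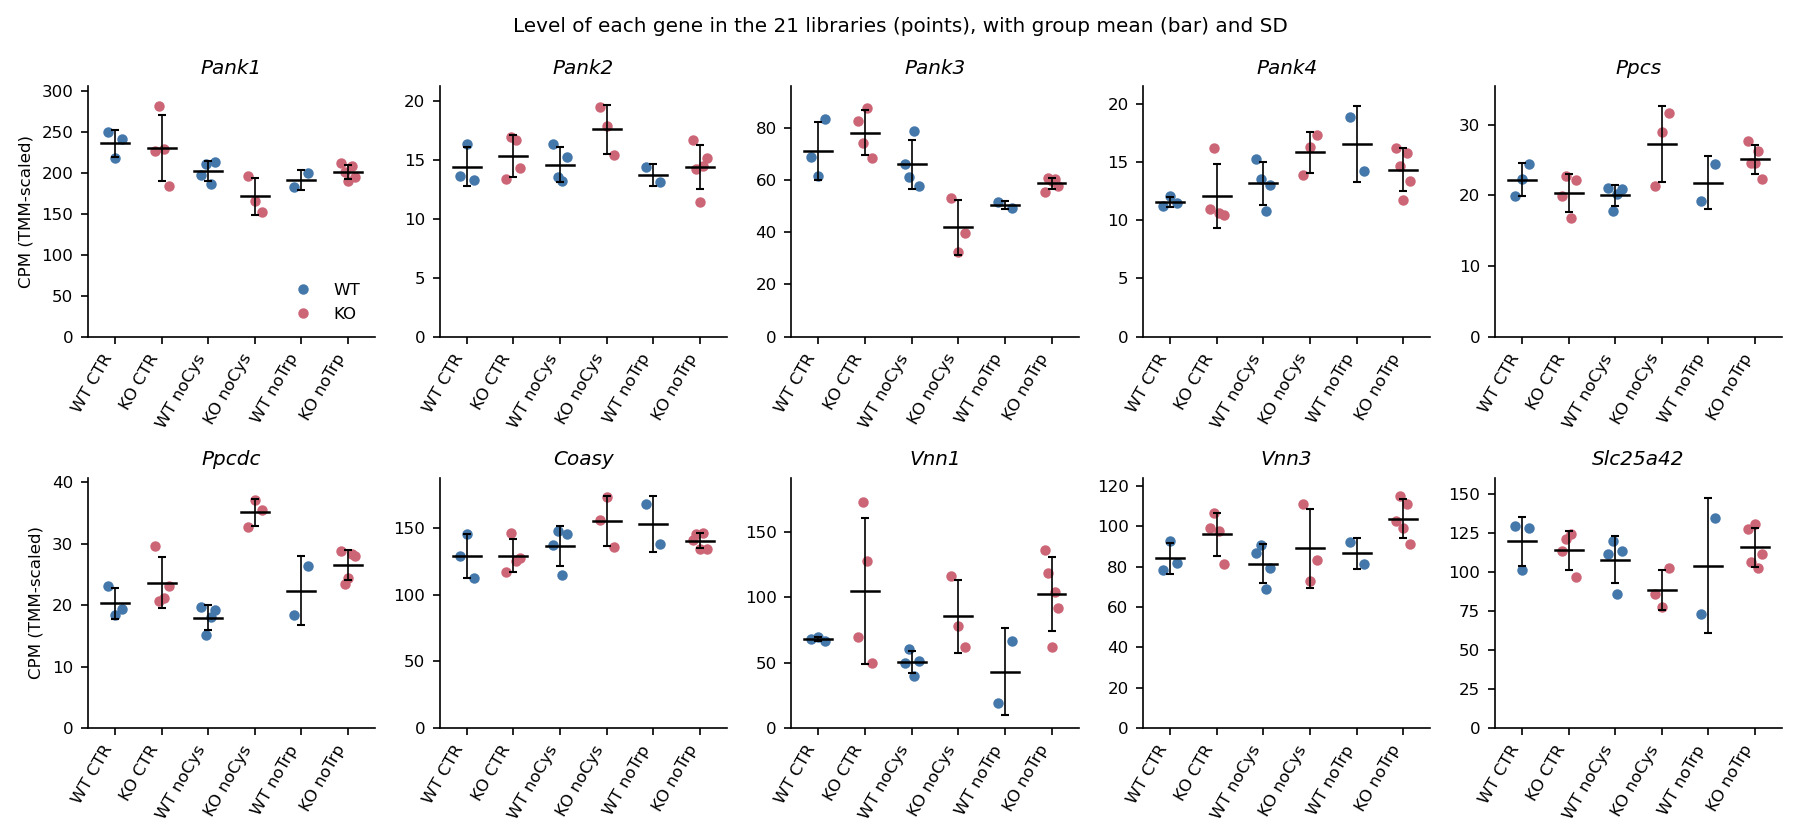
Level of each of the 10 genes in CPM (y axis, from 0) in the 21 libraries by group (x axis, WT in blue and KO in red), where points are libraries, horizontal bars are group means and whiskers are SDs. The 3 KO noCys libraries hold the highest *Ppcdc* values (32.8 to 37.2) of all libraries, and *Vnn1* has the widest spread, from 19.6 to 172.7.

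Livers of KO mice without dietary cysteine, the animals that could neither eat nor make the amino acid, were compared with WT livers on the same diet. *Ppcdc* was about 2-fold higher and *Ppcs* 1.37-fold higher in KO noCys, while the kinase *Pank3* was lower, at 0.631 of the WT noCys level. These were 3 called genes of 10, beside 28.2% of all genes, a share close to theirs. They were 2 higher and 1 lower, beside 14.8% and 13.4% of all genes. The median change of the 10 genes was 0.22, against -0.02 over all genes tested.

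*Ppcdc* (ENSMUSG00000063849, GRCm38 chromosome 9, 57385095 to 57440124), the decarboxylase, was at 32.8, 37.2 and 35.5 CPM in KO noCys. It was at 19.7, 15.1, 18.0 and 19.2 CPM in WT noCys. Every KO noCys library was therefore above every WT noCys library, and in fact above each of the 18 other libraries, the next of which was a KO CTR library at 29.7. The change was 0.96 (SE 0.14, adjusted p = 5.51e-05). It stayed called without any 1 of the 7 libraries, with values from 0.89 to 1.01.

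*Ppcs* (ENSMUSG00000028636, chromosome 4, 119418530 to 119422420), the enzyme that consumes cysteine, was at 21.3, 28.9 and 31.7 CPM in KO noCys. In WT noCys it was at 21, 17.8, 20.2 and 20.9 CPM. The groups did not overlap, but KO noCys replicate 1 lay next to the highest WT noCys library. The change was 0.45 (SE 0.13, adjusted p = 0.0158), and the call was lost without KO noCys replicate 3 (0.41, adjusted p = 0.076) or KO noCys replicate 4 (0.34, adjusted p = 0.109).

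*Pank3* (ENSMUSG00000018846, chromosome 11, 35769484 to 35791285), a kinase of the cytosol, was at 53.1, 32.6 and 39.7 CPM in KO noCys. In WT noCys it was at 66.1, 61.3, 78.8 and 57.6 CPM. No KO noCys library reached the lowest WT noCys library, and KO noCys replicate 3 held the lowest value of the 21 libraries. The change was -0.66 (SE 0.14, adjusted p = 0.0018), called without any 1 of the 7 libraries, with values from -0.87 to -0.51.

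The 7 other genes were not called between KO noCys and WT noCys. *Coasy*, which completes CoA, had a mean of 155 CPM in KO noCys (SD 18.8, n = 3) against 136.2 in WT noCys (SD 14.99, n = 4), a difference of 0.19 (SE 0.11, adjusted p = 0.233). *Pank1*, *Pank2* and *Pank4* differed by -0.24, 0.26 and 0.27, with adjusted p of 0.139 to 0.223. *Slc25a42*, the mitochondrial carrier of CoA, differed by -0.28 (SE 0.17, adjusted p = 0.225). *Vnn3* differed by 0.12 (SE 0.13, adjusted p = 0.511), with a 95% interval of -0.14 to 0.38. Of the 10 genes, 4 had groups that did not overlap (*Pank3*, *Ppcs*, *Ppcdc* and *Vnn1*), beside 37.6% of all genes.

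How many genes differed rested in part on the scaling. When libraries were scaled by their totals and not by TMM, the median over all genes in this comparison shifted from -0.02 to 0.20. Of the 10 genes, 6 were then called, beside 34.3% of all genes, with *Pank2* (0.47), *Pank4* (0.49) and *Coasy* (0.40) joining as higher in KO noCys. The called differences of *Pank3*, *Ppcs* and *Ppcdc* kept their direction and their call under that scaling and under the 6 other settings that kept all libraries of the comparison.

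**Figure D2:**
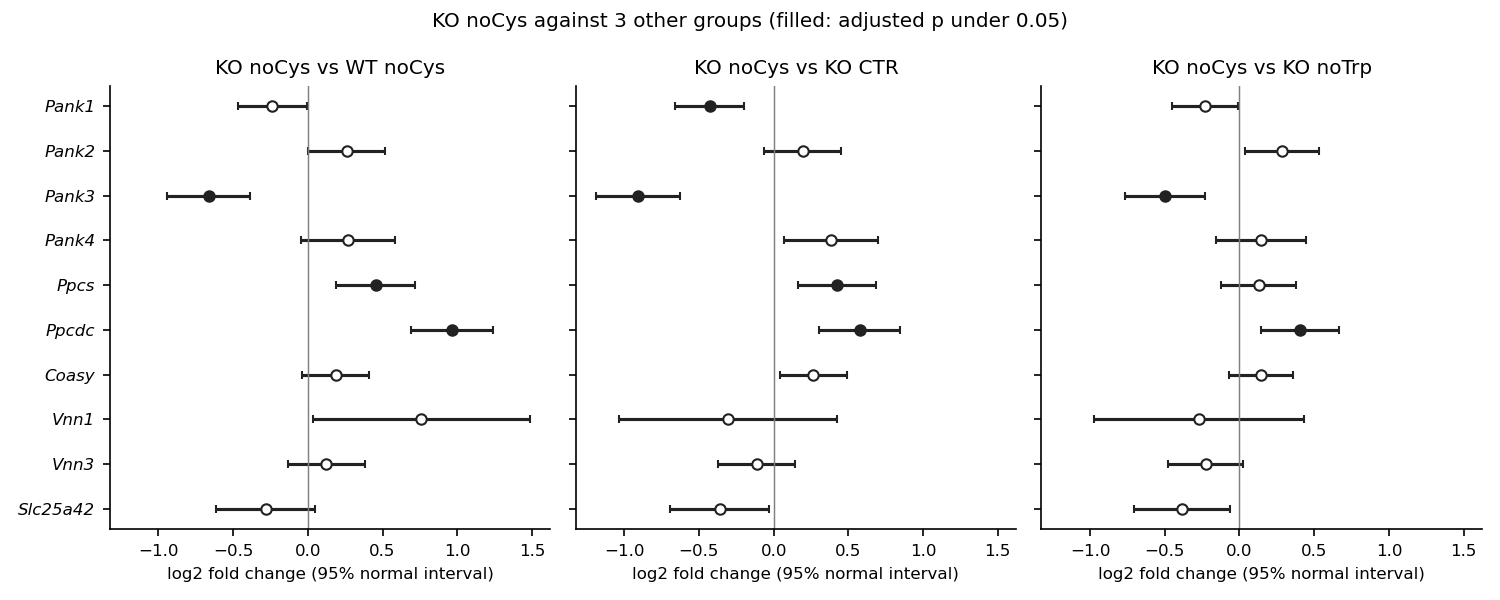
Log2 fold change (x axis) of the 10 genes (y axis) in KO noCys against WT noCys, KO CTR and KO noTrp, with 95% normal intervals from the SE, where filled points are called. *Pank3* lies below 0 and *Ppcdc* above 0 as filled points in all 3 panels, which share the KO noCys libraries, and the interval of *Vnn1* is the widest.

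Within the knockouts, removing cysteine from the diet was accompanied by lower *Pank1* and *Pank3* and higher *Ppcs* and *Ppcdc*. These were 4 called genes of 10 in KO noCys against KO CTR, beside 20.2% of all genes, 2 higher (beside 10.6%) and 2 lower (beside 9.59%). *Pank3* was at 82.4, 74.2, 87.7 and 68.4 CPM in KO CTR, all above the 3 KO noCys values given above, a change of -0.91 (SE 0.14, adjusted p = 0.000196). *Ppcdc* was at 29.7, 20.7, 21.2 and 23.2 CPM in KO CTR, all below the KO noCys values, a change of 0.57 (SE 0.14, adjusted p = 0.00639). Both stayed called without any 1 of the 7 libraries. They were the 2 of 10 genes whose groups did not overlap, beside 28.6% of all genes.

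*Pank1* (ENSMUSG00000033610, chromosome 19, 34806940 to 34879455), which also encodes a PANK of the cytosol and nucleus, was at 226.4, 282, 229.5 and 183.3 CPM in KO CTR. It was at 196.2, 166 and 151.9 CPM in KO noCys. The groups overlapped, because KO CTR replicate 4 lay below KO noCys replicate 1. The change was -0.43 (SE 0.12, adjusted p = 0.0147), and the call was lost without KO noCys replicate 3 (-0.40, adjusted p = 0.0711) or replicate 4 (-0.35, adjusted p = 0.0851), with scaling by library totals (-0.31, adjusted p = 0.0862) and in a fit of only these groups (-0.45, adjusted p = 0.0729).

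The KO CTR libraries held *Ppcs* at 19.98, 22.7, 16.8 and 22.1 CPM, and KO noCys replicate 1 lay within that range. Its change was 0.43 (SE 0.13, adjusted p = 0.0293), lost without KO CTR replicate 1 (0.41, adjusted p = 0.0614), KO CTR replicate 3 (0.34, adjusted p = 0.0955), KO noCys replicate 3 (0.38, adjusted p = 0.126) or KO noCys replicate 4 (0.31, adjusted p = 0.17). It was also lost without the filter on low counts (0.41, adjusted p = 0.0666) and in a fit of only these groups (0.41, adjusted p = 0.105). *Pank4*, a member of the kinase family without kinase activity, differed by 0.38 (SE 0.16, adjusted p = 0.0962), and by 0.57 without KO CTR replicate 2, when it was called (adjusted p = 0.0102). *Coasy* (0.26, adjusted p = 0.109) and *Slc25a42* (-0.36, adjusted p = 0.141) were not called, although their 95% intervals did not reach 0.

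The same removal of cysteine in WT animals gave no call among the 10 genes with edgeR, beside 0.661% of all genes. None of the 10 had an unadjusted p under 0.05 with edgeR, and DESeq2 and limma-voom also called 0. The largest differences of WT noCys from WT CTR were -0.44 for *Vnn1* (SE 0.37, adjusted p = 0.649) and -0.23 for *Pank1* (SE 0.12, adjusted p = 0.399). For *Pank1* the WT CTR libraries were at 249.4, 217.9 and 241.4 CPM and the WT noCys libraries at 197.6, 210.2, 186.6 and 213.3, so the groups did not overlap. The same held for *Vnn1*, and for 16.4% of all genes. *Pank3* differed by -0.11 (adjusted p = 0.781) and *Ppcdc* by -0.17 (adjusted p = 0.66) in WT. The difference between the genotypes in the response to cysteine removal was tested directly: 2 of the 10 genes were called beside 7.44% of all genes, *Pank3* (-0.80, SE 0.20, adjusted p = 0.0189) and *Ppcdc* (0.74, SE 0.20, adjusted p = 0.0293). *Ppcs* was at 0.57 (SE 0.19, adjusted p = 0.0732) and was not called. It passed the threshold without KO noCys replicate 1 (0.72, adjusted p = 0.016), with limma-voom (0.66, adjusted p = 0.016) and with library totals (0.73, adjusted p = 0.0458).

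The interaction calls of *Pank3* and *Ppcdc* were both sensitive to single libraries. *Pank3* lost its call without WT CTR replicate 2 (-0.70, adjusted p = 0.0583), KO noCys replicate 3 (-0.65, adjusted p = 0.0727) or KO noCys replicate 4 (-0.77, adjusted p = 0.0503). *Ppcdc* lost its call in 7 of 14 omissions, with values from 0.63 to 0.87 over all 14 and adjusted p up to 0.0994. The 7 were WT CTR replicate 1, KO CTR replicates 2, 3 and 4, WT noCys replicate 2 and KO noCys replicates 3 and 4. With the replicate block it was at 0.74 (adjusted p = 0.0585).

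On the control diet edgeR called none of the 10 genes between the genotypes, beside 0.32% of all genes. None had an unadjusted p under 0.05, and DESeq2 and limma-voom called 0. Differences of KO CTR from WT CTR ran from -0.12 (*Ppcs*, SE 0.14) to 0.63 (*Vnn1*, SE 0.38), and the groups overlapped for each of the 10 genes, while they did not for 10.9% of all genes. The mean of *Coasy* was 129.1 CPM in both KO CTR (SD 12.4, n = 4) and WT CTR (SD 16.6, n = 3), with a 95% interval for the difference of -0.23 to 0.22.

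Removing tryptophan from the diet, the comparison for the loss of an amino acid that is not part of CoA, gave no call among the 10 genes with edgeR in KO (beside 1.87% of all genes) or in WT (beside 3.19%). Unadjusted p values were under 0.05 for 2 of the 10 genes in KO and 3 in WT. *Pank3* came closest in both genotypes. In KO noTrp it was at 60.9, 59.4, 60.2, 57.8 and 55.4 CPM, all below the KO CTR values, with a change of -0.41 (SE 0.12, adjusted p = 0.0828). The WT noTrp libraries held 51.4 and 49.2 CPM of it, both below the WT CTR values of 68.9, 61.4 and 83.3, with a change of -0.50 (SE 0.17, adjusted p = 0.112). Within KO, *Pank3* was called by DESeq2 (-0.41, adjusted p = 0.0406), by limma-voom (-0.43, adjusted p = 0.0369) and in a fit of only these groups (-0.42, adjusted p = 0.0488). In WT both other tools called 0. Groups did not overlap for 1 of the 10 genes in KO, beside 6.33% of all genes, and for 3 in WT, beside 30.6%.

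The test of whether tryptophan removal acted differently between genotypes called 0 of 14370 genes with edgeR (0%), of which 821 had an unadjusted p under 0.05. It called 17 genes with DESeq2 and 0 with limma-voom. None of the 10 genes was called by any of these tools or had an unadjusted p under 0.05 with edgeR. *Vnn1* had the largest value, 0.63 (SE 0.56, adjusted p = 0.967), which was -0.005 without WT noTrp replicate 1. *Pank4* was at 18.8 and 14.3 CPM in WT noTrp against 11.2, 12.1 and 11.5 in WT CTR, a difference of 0.51 (SE 0.19, adjusted p = 0.158).

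The depleted diets were also set against each other. In KO noCys against KO noTrp, 2 of 10 genes were called beside 13.9% of all genes. *Pank3* was lower without cysteine (-0.50, SE 0.14, adjusted p = 0.0192), and its groups did not overlap. *Ppcdc* was at 23.5, 24.5, 28.3, 27.97 and 28.9 CPM in KO noTrp, all below the KO noCys values, and the change was 0.41 (SE 0.13, adjusted p = 0.0459). This *Ppcdc* call was lost in all 8 omissions of a single library of the 2 groups (0.36 to 0.45, adjusted p up to 0.193), without the filter on low counts (adjusted p = 0.0779) and with the replicate block (adjusted p = 0.103). The *Pank3* call was lost without KO noCys replicate 3 (-0.34, adjusted p = 0.176) or replicate 4 (-0.46, adjusted p = 0.0818). *Ppcs* differed by 0.13 (SE 0.13, adjusted p = 0.544) between these diets, with KO noTrp at 22.3 to 27.7 CPM. *Slc25a42* was at 103 to 130.7 CPM in KO noTrp and 86.2, 77.5 and 102.8 in KO noCys, without overlap but also without a call (-0.38, SE 0.16, adjusted p = 0.123). Groups did not overlap for 3 of the 10 genes and for 19.6% of all genes.

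The genotype difference itself was compared between the depleted diets. KO differed from WT by -0.66 without cysteine and by 0.22 without tryptophan for *Pank3*, and the difference of these differences was -0.89 (SE 0.21, adjusted p = 0.0153). For *Ppcdc* the values were 0.96, 0.25 and 0.71 (SE 0.21, adjusted p = 0.0455). These were 2 called genes of 10, beside 6.35% of all genes. The *Pank3* call was lost without KO noCys replicate 3 (-0.73, adjusted p = 0.0554). It was also lost without WT noTrp replicate 2 (-0.86), which leaves 1 animal in that group. In that omission *Slc25a42* was at -0.93, against -0.44 with all libraries. *Ppcdc* stayed called only without KO noCys replicate 1 or WT noTrp replicate 1, that is in 2 of 14 omissions, and was at 0.43 without WT noTrp replicate 2 (adjusted p = 0.269). Its call was also lost with limma-voom (adjusted p = 0.115), without the filter on low counts (adjusted p = 0.0585), with the replicate number as a block (adjusted p = 0.0733) and in a fit of only the compared groups (adjusted p = 0.0511).

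In the comparisons that use KO noCys, the number of calls over all genes was lowest without KO noCys replicate 3. Without it the share of all genes called was 16.5% in KO noCys against WT noCys (2 of the 10 genes called), 9.65% against KO CTR (2 called) and 3.99% against KO noTrp (0 called). It was 3.01% in the cysteine interaction and 2.91% for the genotype difference between the depleted diets, with 0 of the 10 genes called in both, and 18.7% in the test for any difference (2 called). Without KO noCys replicate 4 the share was 8.39% against KO noTrp and 4.92% in the cysteine interaction, again with 0 of the 10 called. Without WT CTR replicate 1 or 2 it was 4.46% or 4.87% in that interaction.

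**Figure D3:**
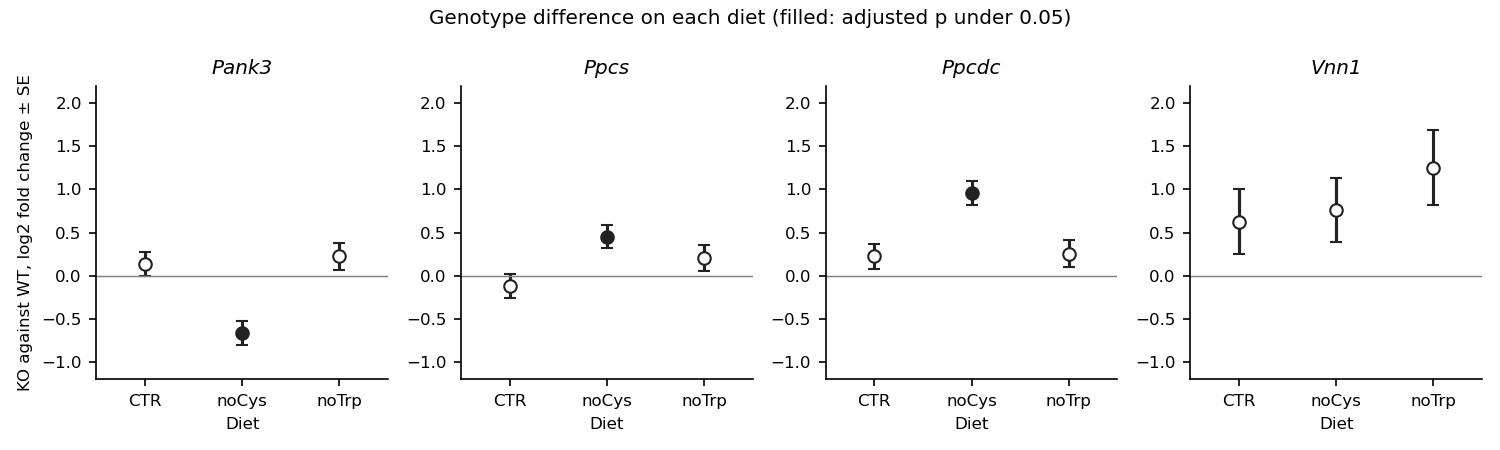
KO against WT log2 fold change ± SE (y axis) on each diet (x axis) for *Pank3*, *Ppcs*, *Ppcdc* and *Vnn1*, with filled points for called differences. The calls of *Pank3* (-0.66), *Ppcs* (0.45) and *Ppcdc* (0.96) stand on the noCys diet, while *Vnn1* lies above 0 on all 3 diets and is not called on any.

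The pantetheinase genes are neighbours on chromosome 10, *Vnn1* (ENSMUSG00000037440) at 23894688 to 23905343 and *Vnn3* (ENSMUSG00000020010) at 23851462 to 23869843. *Vnn1* encodes a pantetheinase anchored to the membrane and is a known target of the fatty acid sensor PPARα in liver. It varied most of the 10 genes, 8.82-fold between the lowest and the highest library, and its coefficient of variation exceeded that of 85% of tested genes. *Coasy* varied least, 1.54-fold.

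*Vnn1* was at 68.5, 69.7 and 66.5 CPM in WT CTR and at 69.5, 172.7, 127.5 and 50.2 in KO CTR. Without cysteine it was at 49.9, 60.6, 39.8 and 51.0 CPM in WT and at 116.4, 78.0 and 62.0 in KO. Without tryptophan it was at 19.6 and 66.7 CPM in WT and at 118.9, 62.3, 104.1, 91.6 and 136.2 in KO. KO means were above WT means on all 3 diets, but only on the noCys diet did the groups not overlap, and the spread within KO CTR alone covered the KO noCys range.

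None of these *Vnn1* differences was called. KO against WT was 0.63 (SE 0.38, adjusted p = 0.633) on the control diet, 0.76 (SE 0.37, adjusted p = 0.134) without cysteine and 1.25 (SE 0.44, adjusted p = 0.338) without tryptophan, where edgeR, DESeq2 and limma-voom called 0 of the 10 genes, beside 0.195% of all genes with edgeR, and only *Vnn1* had an unadjusted p under 0.05. Groups did not overlap there for 1 of the 10 genes, *Pank3*, beside 9.94% of all genes. A fit of only the KO noCys and WT noCys libraries called *Vnn1* (0.76, adjusted p = 0.0154). On the noTrp diet it was called without WT noTrp replicate 2 (2.39, adjusted p = 0.0341), which left the replicate at 19.6 CPM as the lone WT library. *Vnn3* ranged from 69.1 to 114.9 CPM, with KO against WT differences of 0.19, 0.12 and 0.26 on the 3 diets. It was called in KO noCys against KO noTrp only when KO noCys replicate 1 was left out (-0.41, adjusted p = 0.0359).

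The kinases can be compared with one another as shares of the summed CPM per kilobase of *Pank1*, *Pank2* and *Pank3*, the family members that phosphorylate pantothenate. *Pank1* made up 66.8% to 70.6% of this sum on average in the 6 groups. *Pank2* made up 12% ± 0.808 (SD, n = 3) in KO noCys, from 11.4% to 12.9%, and 6.24% to 9.28% in the 18 other libraries. *Pank3* made up 18.8% ± 2.68 (n = 3) in KO noCys and 20.8% to 25.7% on average in the other groups. The share of *Pank2* was higher in each KO noCys library than in any other, with *Pank2* itself at 17.6 ± 2.05 CPM (n = 3) in KO noCys and 13.7 to 15.3 on average elsewhere. With the longest transcript as length the *Pank2* share was 12% to 13.5% in KO noCys and 6.61% to 9.76% in the 18 other libraries. The *Pank2* level was not called in any comparison with the TMM scaling. Of its exon bases, 22.9% also lie in exons of *Rnf24* on the opposite strand and 7.31% in *Gm14233*. The strand setting of the counting was not given in the sources used here, so reads from these genes may not have been told apart.

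**Figure D4:**
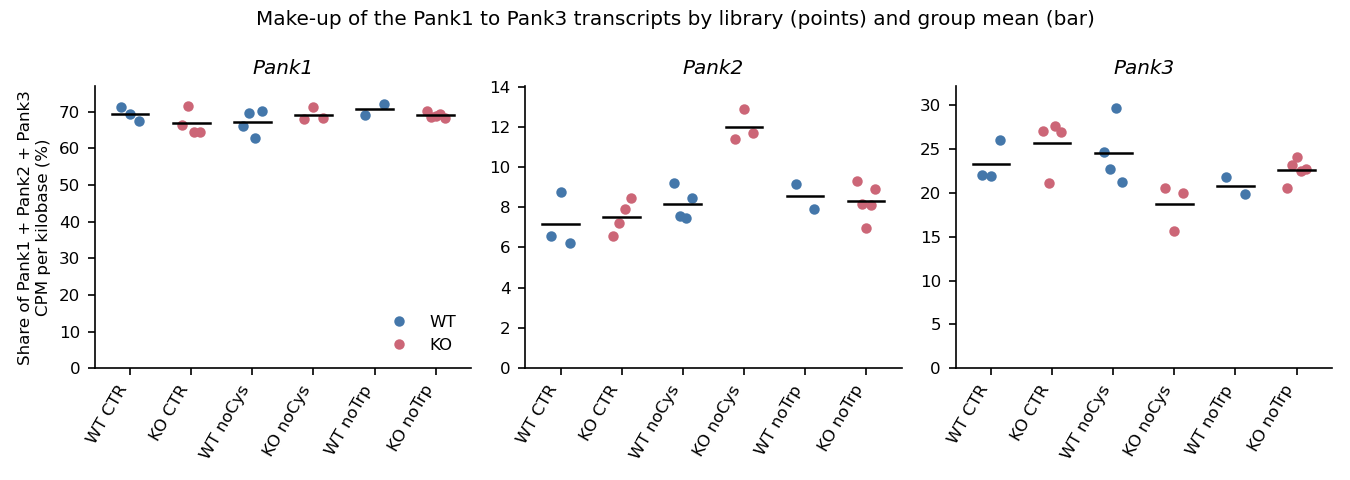
Share in percent (y axis, from 0) of the summed *Pank1*, *Pank2* and *Pank3* CPM per kilobase held by each gene, by group (x axis), with points for libraries (WT in blue, KO in red) and bars for group means. The 3 KO noCys libraries lie at 11.4% to 12.9% for *Pank2*, above the 18 other libraries.

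Each of these kinase genes carries a microRNA gene in an intron, on its own strand: *Mir107* in *Pank1*, *Mir103-2* in *Pank2* and *Mir103-1* in *Pank3*. The mature 3p strands are shown because they lie inside the kinase genes described here. They are from RefSeq on GRCm38.p6, 5′ to 3′, with the seed (bases 2 to 8) in capitals.
mmu-miR-107-3p (chr19:34820700-34820722, minus strand): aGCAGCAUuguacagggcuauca
mmu-miR-103-3p (chr2:131288103-131288125 and chr11:35782447-35782469, plus strand): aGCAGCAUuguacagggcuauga
The seed is the same in both sequences, and *Mir103-1* and *Mir103-2* give the same mature sequence. Exons of the host genes do not overlap the hairpins, and poly(A) gene counts do not measure mature microRNAs, so no level of theirs is given.

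RefSeq start-site windows (250 bases before to 50 after a gene's start, GRCm38.p6) were given for 8 of the 10 genes, 11 windows in all, and not for *Coasy* or *Vnn1*. For *Ppcdc* the RefSeq start lies 388 bases inside the gene as GENCODE M21 draws it. The windows were searched on both strands for 3 motifs by exact letters. An ETS-type motif, CCGGAAG, was in 3 of the 11 windows (1 each of *Pank2*, *Pank3* and *Ppcs*), beside 8.86% of all 32851 windows. TGACNNNGC, an antioxidant response type, was in 2 (*Pank2* and *Vnn3*), beside 12.4%. TGATGCAA, an ATF4 type, was in 0, beside 0.895%. The upstream parts of *Pank3* and *Ppcs* are shown because these genes moved in opposite directions in KO noCys and share the ETS-type letters, which are in capitals.
*Pank3* (chr11:35769245-35769483, plus strand): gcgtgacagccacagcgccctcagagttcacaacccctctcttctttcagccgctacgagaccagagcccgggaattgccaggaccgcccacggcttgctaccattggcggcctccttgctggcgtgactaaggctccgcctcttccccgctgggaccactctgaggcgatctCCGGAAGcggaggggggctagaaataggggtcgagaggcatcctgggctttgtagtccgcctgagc
*Ppcs* (chr4:119422421-119422670, minus strand): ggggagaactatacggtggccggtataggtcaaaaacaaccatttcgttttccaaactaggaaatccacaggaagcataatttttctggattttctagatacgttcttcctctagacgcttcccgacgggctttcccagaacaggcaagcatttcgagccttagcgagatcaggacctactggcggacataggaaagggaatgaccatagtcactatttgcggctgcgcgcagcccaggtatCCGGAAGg
The motif begins 77 bases before the RefSeq start of *Pank3* and 8 bases before that of *Ppcs*. A letter match is not evidence of binding, and other letters were not searched.

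Correlations among the 10 genes over the 21 libraries are given as a description, because libraries share their groups and their scaling. The highest Pearson r of log2 CPM was 0.739 between *Pank4* and *Coasy*. It was 0.699 between *Pank1* and *Pank3*, 0.661 between *Ppcs* and *Ppcdc*, the enzymes of consecutive steps, 0.582 between *Pank1* and *Slc25a42*, and 0.579 between *Vnn1* and *Vnn3*. The lowest were -0.734 between *Pank3* and *Coasy* and -0.673 between *Pank3* and *Pank4*. Over all tested genes, those most like *Ppcdc* were *Cmss1* (0.924), *1700029J07Rik* (0.917) and *Rbm5* (0.907). Those most like *Pank3* were *Arl6ip1* (0.909), *Tmem127* (0.903) and *Serpinb1a* (0.902). For *Pank1* the nearest was *Acsl5* (0.844), an acyl-CoA synthetase, followed by *Pnldc1* (0.836) and *Gm4952* (0.833). *Slc25a42* was nearest to *Ten1* (0.865), *Tlr12* (0.829) and *Acsl1* (0.818), the main long-chain acyl-CoA synthetase of liver. *Vnn3* was nearest to *Acss3* (0.814), *Dlst* (0.813) and *Gm19680* (0.802), and *Vnn1* to *Med22* (0.852), *Vwa8* (0.85) and *Wdr73* (0.831). *Ppcs* was nearest to *Haus8* (0.814), *Rreb1* (0.81) and *Rgp1* (0.802), and *Coasy* to *Gm7964* (0.903), *Ybx1* (0.878) and *Appl2* (0.86). *Pank2* was nearest to *Trappc8* (0.857), *Stam2* (0.85) and *Aifm1* (0.849), and *Pank4* to *Khnyn* (0.885), *Vps51* (0.87) and *Tomm40l* (0.861).

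Of 12 listed genes that supply, move or take apart CoA, 11 were tested (*Nudt8* was not analysed here). In KO noCys against WT noCys 1 was called higher, beside 14.8% of all genes, and 4 lower, beside 13.4%. The median of the 11 was -0.21, against -0.02 over all genes. *Dcakd*, which carries a dephospho-CoA kinase domain, rose by 0.60 (SE 0.12, adjusted p = 0.000955). *Enpp3*, a surface nucleotide pyrophosphatase, fell by 1.41 (SE 0.19, adjusted p = 2.94e-05) and its relative *Enpp1* fell by 0.43 (adjusted p = 0.0155). *Nudt19*, a peroxisomal CoA diphosphatase, fell by 0.37 (SE 0.09, adjusted p = 0.00498), and *Slc25a16*, a mitochondrial carrier linked to CoA, fell by 0.36 (adjusted p = 0.0118).

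*Nudt19* was lower in KO noCys also against KO CTR (-0.33, adjusted p = 0.0154) and against KO noTrp (-0.62, SE 0.09, adjusted p = 0.000157), and higher in WT noTrp than in WT CTR (0.47, adjusted p = 0.0249). *Enpp3* fell in KO on both depleted diets, by 1.24 without cysteine (adjusted p = 0.000164) and by 0.74 without tryptophan (adjusted p = 0.0203), each against the same KO CTR libraries. *Dcakd* rose by 0.49 against KO CTR without cysteine (adjusted p = 0.00638).

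Acyl-CoA thioesterases, which free CoA from acyl-CoA, gave 1 call of 12 tested in KO noCys against WT noCys, beside 28.2% of all genes, with a median of -0.14. It was *Acot2*, the mitochondrial form, at 1.52 (SE 0.36, adjusted p = 0.00369). Reads of *Acot2* and its near-identical neighbour *Acot1* may not have been separated, and *Acot1* was at -1.22 (adjusted p = 0.134). *Them4* was lower against KO CTR (-0.53, adjusted p = 0.049).

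Acyl-CoA synthetases, which consume free CoA, gave 4 calls higher and 3 lower of 17 tested in KO noCys against WT noCys, beside 14.8% and 13.4% of all genes, with a median of -0.06. The higher genes were *Acsm2* (1.53, SE 0.45, adjusted p = 0.0155), *Acsf3* (0.47), *Acsl4* (0.46) and *Slc27a4* (0.24). On the control diet KO against WT was 1.41 for *Acsm2*, 0.09 for *Acsf3*, 0.35 for *Acsl4* and 0.23 for *Slc27a4*, none called. KO noCys against KO CTR was 0.08, 0.18, 0.29 and 0.04 in the same order, none called. *Acsm2* was near the floor, at a mean of 1.84 CPM in KO noCys and 0.607 in WT noCys. The lower genes were *Slc27a5* (-1.06, SE 0.13, adjusted p = 1.25e-05), the bile acyl-CoA synthetase, *Acsl3* (-1.01) and *Acss2* (-0.73), which makes acetyl-CoA from acetate in the cytosol and nucleus. *Acss2* was lower than on the control diet in KO noCys (-1.16), KO noTrp (-0.91) and WT noTrp (-1.15), with adjusted p of 5.76e-05, 0.00123 and 0.00442. *Acsl3* was lower in KO noCys than in KO CTR (-1.10, adjusted p = 0.00887), *Slc27a5* than in KO noTrp (-0.83, adjusted p = 0.000336), and *Acsl4* was higher in WT noTrp than in WT CTR (0.60, adjusted p = 0.0407). In KO noCys against KO CTR, 5 of the 17 synthetases were called, all lower, beside 9.59% of all genes called lower.

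*Ppara* and its common liver targets, the programme that includes *Vnn1*, gave 3 calls higher and 2 lower of 18 tested in KO noCys against WT noCys, with a median of -0.03. The share called was close to that of all genes (28.2%, of which 14.8% higher and 13.4% lower). *Plin2*, which coats lipid droplets, rose by 1.17 (SE 0.31, adjusted p = 0.00808), *Ehhadh* of peroxisomal oxidation rose by 0.89 (adjusted p = 0.0402) and *Cpt1a*, the gate to mitochondrial oxidation, rose by 0.44 (adjusted p = 0.0177). *Fabp1*, the liver fatty acid binding protein, fell by 0.96 (adjusted p = 0.0463). The list thus held calls in both directions, and *Ppara* itself was at -0.38 (SE 0.17, adjusted p = 0.096). *Ehhadh* was higher in KO noCys also against KO CTR (0.98, adjusted p = 0.0341) and KO noTrp (1.01, adjusted p = 0.0285). *Fabp1* was lower against KO CTR (-1.38, adjusted p = 0.00971), and *Pex11a* was lower against KO noTrp (-0.65, adjusted p = 0.0102).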

How the data were processed

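Liver poly(A) RNA from 21 mice was sequenced. The authors made libraries with NEBNext Ultra from TRIzol RNA, aligned reads to GRCm38 with HISAT2 2.1.0 and counted them with HTSeq 0.11.0, as the study's methods and the submitters' processing notes give them. The annotation release and strand setting are not given in the sources used here. The deposited values are raw integer counts per Ensembl gene, without normalization. Groups and replicate numbers came from the sample titles, columns were matched by sample description, and 1 column matched no sample and was not used. Of 46078 rows, 45229 were in GENCODE M21, and the others held 0.054% of counts.

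Counts were tested with edgeR 4.0.16 in R 4.3.3 (TMM factors 0.883 to 1.14; filterByExpr with minimum count 10 and minimum total 15; two-sided quasi-likelihood F-test, 1 model of the 6 groups, Benjamini-Hochberg adjustment over 14370 genes). Replicates are separate animals as the titles number them. The fit was also run on counts simulated from the model it assumes, which cannot show how well that model holds for the real counts. There were 8 comparisons of 2 groups, 3 tests of a difference between differences, and 1 test over all groups. Correlations used log2 CPM with a prior count of 2. Intervals are 95% normal intervals.

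All 10 genes are named, with called genes of 4 further lists (up to 5 per direction in KO noCys against WT noCys, 2 elsewhere) and the 3 genes nearest to each of the 10; 1 called gene of the lists is counted but not reported here by name. Other genes named (*Ppara*, *Acot1*) were chosen after their values were seen. The 10 genes and the lists were chosen with earlier results of these data known. Alternatives were DESeq2 1.42.0, limma 3.58.1 (voom with quality weights), RLE factors, library totals alone, no filter, a fit of only the compared groups, a replicate block and each library left out.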

Additional observations from a re-analysis of the deposited data

Results flagged for a closer look

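Among the 10 genes in the 3 groups of 4 or 5 libraries (30 groups of values), 1 library stood apart from the rest of its group. *Pank4* was at 16.2 CPM in KO CTR replicate 2 and at 10.4 to 10.99 in the 3 other KO CTR libraries, a gap of 0.901 of the group's range. Chance gives such a gap in about 5% of groups, and here it was 3.33%.

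Differences between differences were called for *Pank3* and *Ppcdc*. Removing cysteine acted differently in KO than in WT for *Pank3* (-0.80 on the log2 scale) and for *Ppcdc* (0.74). The KO against WT difference itself differed between the cysteine-free and the tryptophan-free diet for *Pank3* (-0.89) and for *Ppcdc* (0.71). These were 4 of 30 such tests over the 10 genes, 2 of 10 in the first beside 7.44% of all genes, 2 of 10 in the second beside 6.35%, and 0 of 10 in the tryptophan interaction beside 0%, and the 4 share the KO noCys and WT noCys libraries. Each of the 4 lost its call without at least 1 library, as given above.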

How the results depend on the processing

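Over the 10 genes, 1760 values of single genes in single comparisons were recomputed under the alternatives. With 1 library left out, 939 kept their direction and side of the threshold, 42 lost a call, 5 gained one and 4 turned direction. Under the other alternatives these numbers were 745, 11, 14 and 0. A difference that was smaller than its SE in the report was counted as having no direction, whatever its size under the alternative, and 73 such values changed sign. The 4 that turned were all without WT noTrp replicate 1 and were not called under either setting: *Pank4* (0.0117) and *Coasy* (0.0207) in KO noTrp against WT noTrp, *Slc25a42* in WT noTrp against WT CTR (0.17), and *Vnn1* in the tryptophan interaction (-0.005). Over all omissions their ranges were -0.39 to 0.0117, -0.26 to 0.0207, -0.70 to 0.17 and -0.005 to 1.76.

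The number of the 10 genes called changed by over 1.5 times in the following settings, and the cause was not tested. The share of all genes called in each setting stands in brackets. In KO noCys against WT noCys it was 6 with library totals alone (34.3%), and 3 in the report. In KO noCys against KO CTR it was 2 with only the compared groups (17.9%), and 4 in the report. In KO noTrp against KO CTR it was 1 with DESeq2 (4.22%), limma-voom (4.24%) and only the compared groups (1.04%), and 0 in the report. For any difference it was 5 with DESeq2 (36.1%) and 6 with limma-voom (38.6%) and with library totals (33.3%), and 3 in the report. In KO noCys against KO noTrp it was 1 without the filter (5.8%), and for the genotype without cysteine against without tryptophan 1 with limma-voom (3.85%), without the filter (2.7%) and with only the compared groups (4.62%), against 2 in the report for each. With the replicate number as a block, the count was 1 in these last comparisons (9.06% and 4.38%) and in the cysteine interaction (5.69%), against 2 in the report, *Ppcdc* being the gene lost, and no other count moved by over 1.5 times. The titles do not say that the numbers pair the animals. The mean correlation of deviations from the group mean was -0.00902 over 41 same-numbered pairs (-0.355 to 0.353). Over 140 other pairs it was 0.00276 (-0.384 to 0.24). These means cannot show whether animals were paired or shared a batch, because the deviations were taken within groups of 2 to 5 animals.

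Without 1 library at a time the counts ran from 0 to 3 for the cysteine interaction, 2 to 6 for any difference, 2 to 5 for KO noCys against KO CTR, 2 to 3 for KO noCys against WT noCys, 0 to 2 for KO noCys against KO noTrp and for the genotype without cysteine against without tryptophan, and 0 to 1 for KO noTrp against WT noTrp. They stayed at 0 for the other comparisons. Omitting a WT noTrp library leaves 1 animal in that group, assumed to vary like the others. With library totals the median of all genes also moved to 0.13 in KO noCys against KO CTR, 0.16 in the cysteine interaction and 0.19 for the genotype without cysteine against without tryptophan. All genes called in KO noCys against WT noCys were then 3944 higher and 983 lower, in place of 2130 and 1925. With 1 library left out, the share of all genes called ran from 16.5% to 27.1% in KO noCys against WT noCys, 9.65% to 20.8% against KO CTR and 3.99% to 14.8% against KO noTrp, from 3.01% to 9.75% in the cysteine interaction, 2.91% to 8.21% for the genotype without cysteine against without tryptophan and 18.7% to 33.5% for any difference. It ran from 0.0629% to 0.371% in KO CTR against WT CTR, 0.00698% to 0.371% in WT noCys and 0.66% to 4.85% in WT noTrp against WT CTR, 0.735% to 3.12% in KO noTrp against KO CTR, 0.0933% to 1.53% in KO noTrp against WT noTrp, and 0% to 0.446% in the tryptophan interaction.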
